A study of Mus musculus with 3 samples.

Results

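The collagen genes were read across the cell classes of the mouse larynx in a single-cell RNA sequencing study of cells sorted for tdTomato. Members were all features whose symbol has the form Col, number, a, number, which gave 44 of the 33696 features counted. By the structure of the proteins they fell into 11 fibril-forming, 9 fibril-associated, 6 type IV, 6 type VI, 3 short-chain network, 2 multiplexin and 4 membrane-anchored chains, 1 anchoring fibril chain (Col7a1) and 2 others (Col26a1 and Col28a1). There were 3 libraries and 1 condition. Each library came from 10 pooled larynges (5 males and 5 females) of Lrig1CreERT2/+; ROSA26CAG−LSL−tdTomato/+ mice, collected 24 h after recombination. All animals therefore carried 1 Lrig1 allele with CreERT2, and tamoxifen let this Cre switch on tdTomato in cells where the Lrig1 locus was active. Wild-type and ROSA26CAG−LSL−tdTomato/+ larynges served to set the sorting gates and gave no library, so no unsorted cells stand beside the sorted ones. A library (a pool of animals) was the replicate, and n = 3 throughout unless stated.

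Collagens are secreted or membrane proteins in which 3 chains wind into a triple helix. Types I, II, III, V and XI form fibrils, type VI forms beaded filaments beside cells, and type IV forms the sheet of basement membranes. Type IV chains come from gene pairs that lie head to head, Col4a1 with Col4a2, Col4a3 with Col4a4 and Col4a5 with Col4a6, and the chains join into α1α1α2, α3α4α5 and α5α5α6 molecules. Epithelia rest on a basement membrane held by hemidesmosomes, which contain the membrane collagen XVII, and by anchoring fibrils of collagen VII. Levels are given as UMIs (counted RNA molecules) of a gene per 1000000 UMIs summed over a class in a library (CPM). The kit counts 3′ ends, and levels of different genes are set side by side on that scale without a length correction. Whether the length of a gene affects its UMIs was not tested.

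The type IV pair on the X chromosome was high in epithelial cells and fibroblasts and low in satellite and endothelial cells, a pattern that the other pairs did not follow, so the sequences before its 2 start sites are shown. In GRCm39, Col4a5 lies at chrX:140258354-140472231 on the plus strand and Col4a6 at chrX:139948399-140257072 on the minus strand, with 1281 bases between the genes. The 250 bases before each canonical start (GENCODE M39) read 5′ to 3′ on the strand of the gene, with matches to the motifs CCAAT and GGGCGG (both strands searched) in capitals:
Col4a5: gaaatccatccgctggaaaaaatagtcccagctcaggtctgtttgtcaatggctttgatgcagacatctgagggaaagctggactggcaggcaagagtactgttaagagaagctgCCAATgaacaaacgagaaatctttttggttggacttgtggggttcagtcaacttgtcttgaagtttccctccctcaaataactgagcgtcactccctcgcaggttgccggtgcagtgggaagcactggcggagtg
Col4a6: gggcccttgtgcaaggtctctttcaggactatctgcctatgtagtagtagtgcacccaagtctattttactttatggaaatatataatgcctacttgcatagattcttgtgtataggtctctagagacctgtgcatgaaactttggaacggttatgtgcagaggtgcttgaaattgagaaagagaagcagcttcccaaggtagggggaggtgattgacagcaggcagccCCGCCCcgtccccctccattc
The Col4a5 window is chrX:140258104-140258353 and the Col4a6 window chrX:140257073-140257322. Each held 1 match, CCAAT in the first and the reverse complement of GGGCGG in the second, and neither held TATAAA or CACCTG. In 250-base windows of 21603 genes, 36.3% held CCAAT, 36.6% GGGCGG, 11.9% TATAAA and 17.8% CACCTG, so both matches were common ones. GC content was 49.6% and 47.6%, below the median of 53.2% over all windows, with 6 and 3 CpG against a median of 8. The other pairs have no such gap: the annotated Col4a1 and Col4a2 genes overlap by 356 bases on chromosome 8 and Col4a3 and Col4a4 by 159 bases on chromosome 1, on opposite strands.

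After filters, 44542 cells remained (13222, 7201 and 24119 in libraries 1, 2 and 3), with a median of 10279 to 14055 UMIs per cell. Classes were set by marker gates: a cell needed at least 1 UMI of 3 or more of the 8 markers of its class and of at most 1 marker of each other class. This gave 23101 epithelial cells (51.9%), 2756 fibroblasts (6.19%), 1262 satellite cells (2.83%), 436 endothelial, 159 leukocyte, 68 mural and 29 cartilage cells. A further 16724 cells (37.5%) met no gate, 13924 of them because they held markers of another class. The muscle class is named satellite because its markers included Pax7, Myf5 and Chodl. Libraries shared 46 to 165 barcodes by pair. Library 3 stood apart in fibroblasts, where the collagen chaperone gene Serpinh1 was at 439, 435 and 1276 CPM in libraries 1, 2 and 3, and the tests with all 3 libraries were also run without each library in turn, other than those on the Hhip and Wnt16 split, basal cells alone and thinned cells. Fibroblast markers were not all at 0 in other classes, whose gates allowed 1 of them: Dcn reached 229, 148 and 262 CPM in epithelial cells and 1264, 2542 and 197 CPM in satellite cells, while Pdgfra, another fibroblast marker, was at 0 in satellite cells of every library and at most 0.293 CPM in epithelial cells. A cell of these classes that held Dcn could not also hold Pdgfra, so the gate itself sets part of this contrast. Whether RNA of fibroblasts has a part in these values or in the low collagen levels below was not tested.

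Of the classes tested, fibroblasts had the largest share of collagen UMIs, at 0.659%, 0.689% and 1.43% in libraries 1, 2 and 3. Satellite cells had 0.1%, 0.0798% and 0.206%, endothelial cells of libraries 1 and 2 had 0.162% and 0.0961%, and epithelial cells had 0.0665%, 0.0636% and 0.0751%. Fibroblasts lay above these classes in each library, and endothelial cells lay above satellite cells in both libraries where they were compared, although their values overlapped between libraries. The classes differed in the genes that made up these UMIs, given here as shares of the collagen UMIs pooled over libraries. Col3a1 (18.7%), Col1a2 (17.1%) and Col1a1 (12.9%), the chains of the main fibrils of connective tissue, led the collagen UMIs of fibroblasts, followed by the membrane-anchored Col23a1 (8.34%), an order set by library 3: in libraries 1 and 2 Col1a2 (1036 and 1139 CPM) lay above Col3a1 (994 and 1080 CPM), and in library 1 Col23a1 (671 CPM) lay above Col1a1 (578 CPM). Epithelial collagen UMIs were mostly Col17a1 (32.8%), Col4a5 (24.1%) and Col4a6 (20.7%). Satellite cells had mostly Col4a1 (20.2%), Col3a1 (17.1%) and Col5a2 (15.9%), with Col5a2 above Col3a1 in libraries 1 and 2 and Col3a1 first in library 3, and endothelial cells had mostly Col4a1 (38.1%), Col4a2 (22.5%) and Col13a1 (18.9%).

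**Figure D1:**
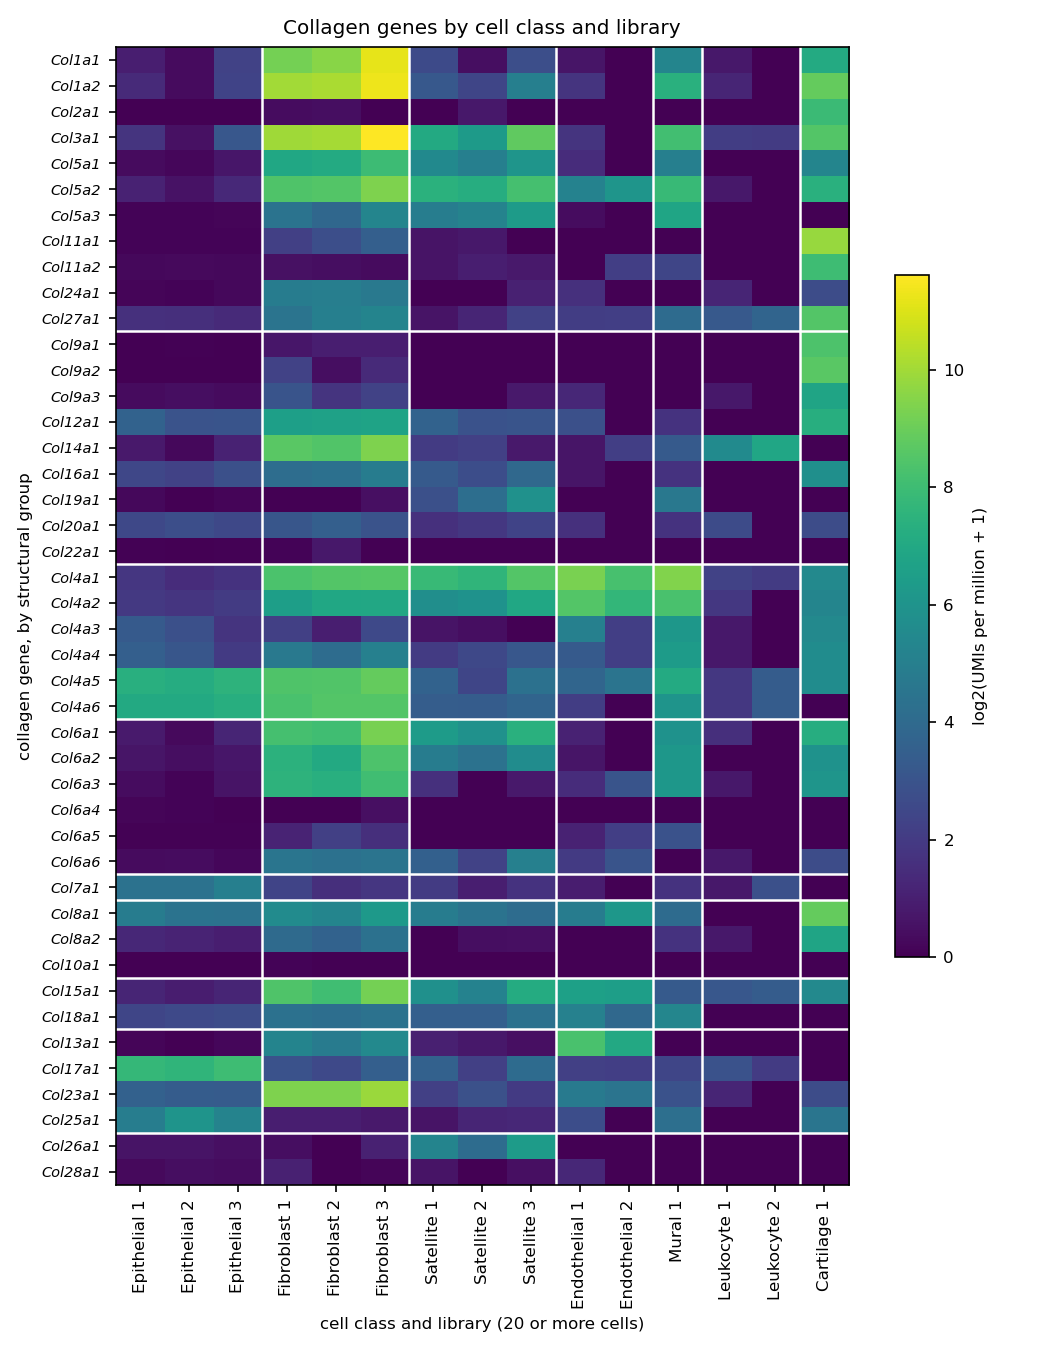
Level of the 44 collagen genes as log2(CPM + 1), by structural group (rows), in each class and library with 20 or more cells (columns). Col1a1, Col1a2 and Col3a1 were highest in fibroblasts, Col17a1 and Col7a1 in epithelial cells, and Col2a1, Col9a1 and Col11a1 in cartilage cells, while Col4a1 and Col4a2 were low in epithelial cells and leukocytes.

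In epithelial cells, Col17a1, Col25a1 and Col7a1 were higher than in fibroblasts and 32 of the 39 collagens tested were lower. Across all 18114 genes tested, 31.2 percent were higher and 28.0 percent lower, and the median log2 fold change was −5.33 over the collagens and 0.08 over all genes (edgeR's quasi-likelihood test, Benjamini-Hochberg adjusted p under 0.05). Of the chains tested, all 7 fibril-associated, all 5 type VI, 9 of 10 fibril-forming and 5 of 6 type IV chains were lower. Some of them passed the count filter only through fibroblasts: Col9a1 had 5 epithelial and 20 fibroblast UMIs, Col9a2 6 and 67, and Col6a5 16 and 44. Chains low in both classes, such as Col19a1, Col22a1 and Col6a4, were not tested. These counts therefore do not describe whole families.

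Col17a1, the hemidesmosome collagen, was at 215, 194 and 255 CPM in epithelial cells of libraries 1, 2 and 3 and at 6.74, 4.95 and 10.3 CPM in fibroblasts. The groups were far apart in every library, with a log2 fold change of 4.88 ± 0.249 (SE) and an adjusted p of 2.4e-06 in edgeR's test. At least 1 Col17a1 UMI was seen in 61.9%, 69.8% and 74.6% of epithelial cells, against 9.01% and 2.63% of leukocytes in libraries 1 and 2, a class that should lack it (52.6%, 50.8% and 61.9% against 4.27% and 0% after thinning to 5000 UMIs per cell). Col25a1, a membrane collagen, was at 29.1, 63.5 and 35.3 CPM in epithelial cells and at 0.943, 0.989 and 0.745 CPM in fibroblasts. Every epithelial library lay above every fibroblast library (log2 fold change 5.61 ± 0.425, adjusted p 1.7e-05, edgeR), and 11.1%, 20.7% and 12.2% of epithelial cells had a Col25a1 UMI against 0% of leukocytes in libraries 1 and 2. Col7a1, the anchoring fibril chain, was at 19.8, 19.8 and 31.6 CPM in epithelial cells against 4.28, 1.98 and 2.61 CPM in fibroblasts, again without overlap (2.89 ± 0.318, adjusted p 1.3e-04, edgeR).

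The fibrillar collagens made up the other side of the comparison. Col1a2, a chain of type I, was at 1.61, 0.277 and 4.07 CPM in epithelial cells and at 1036, 1139 and 2611 CPM in fibroblasts. The log2 fold change was −9.58 ± 1.05, with an adjusted p of 1.2e-04 in edgeR's test. Col1a1 (−9.41 ± 1.19) and Col3a1 (−8.88 ± 1.18) were lower by similar amounts, as were Col14a1, which binds fibrils (−9.32 ± 0.659), and the type VI chains Col6a3 (−9.20 ± 0.539) and Col6a1 (−8.86 ± 0.696), with adjusted p from 4.5e-06 to 3.7e-04 in edgeR's test. The low epithelial values moved together between libraries: Col3a1 was at 2.32, 0.448 and 7.96 CPM, Col14a1 at 0.745, 0.184 and 1.16 CPM and Col6a3 at 0.306, 0.079 and 0.539 CPM, each lowest in library 2 and highest in library 3. Dcn in epithelial cells ran in the same order (229, 148 and 262 CPM). In UMIs the ratio of Col1a1 to Col3a1 was 0.416, 0.588 and 0.49 in epithelial cells and 0.581, 0.695 and 0.749 in fibroblasts. A Col1a1 UMI was found in 1.28%, 0.426% and 4.66% of epithelial cells and 74.7%, 76.4% and 98.4% of fibroblasts, against 0.901% and 0% of leukocytes in libraries 1 and 2. The source of these few epithelial UMIs was not tested.

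**Figure D2:**
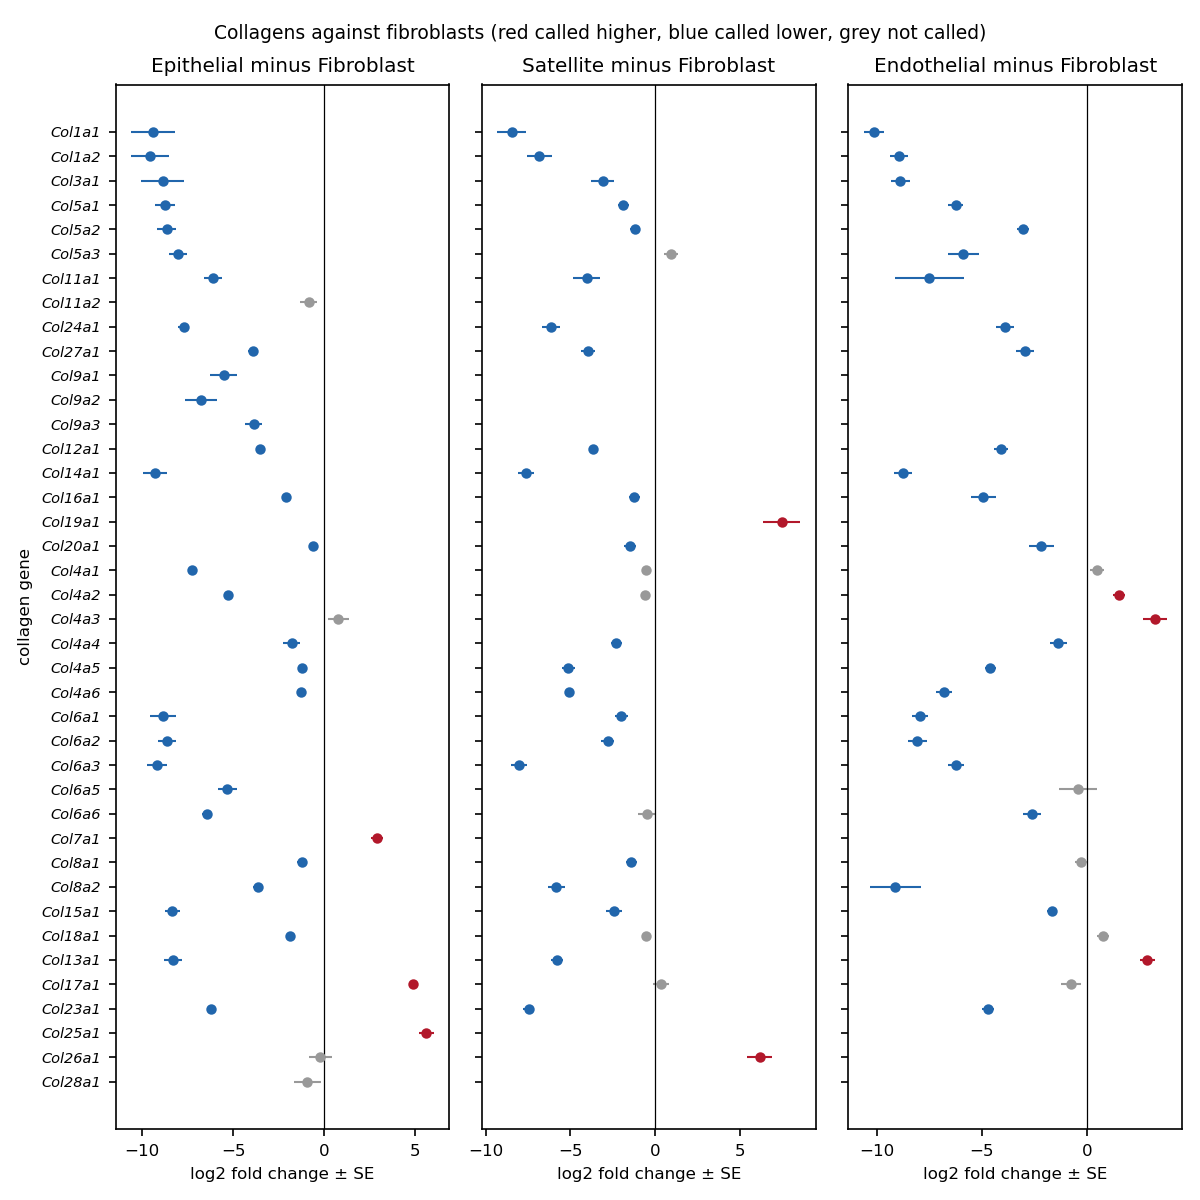
Log2 fold change against fibroblasts (points) with its SE (bars) for each collagen tested, in epithelial, satellite and endothelial cells, the last from libraries 1 and 2. Red points were higher, blue points lower and grey points not called by edgeR at an adjusted p under 0.05. Most collagens were lower in all 3 classes, and the genes that were higher were other ones in each class.

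The type IV pairs separated the classes. Col4a1 was at 2.63, 1.82 and 2.21 CPM in epithelial cells, at 321, 367 and 379 CPM in fibroblasts, at 226, 195 and 361 CPM in satellite cells and at 621 and 304 CPM in endothelial cells of libraries 1 and 2. Epithelial cells lay below all other classes, by a log2 fold change of −7.28 ± 0.192 from fibroblasts (−5.28 ± 0.161 for Col4a2), while the other 3 classes overlapped. Col4a5 and Col4a6 ran otherwise: Col4a5 was at 161, 148 and 183 CPM in epithelial cells, 339, 351 and 468 CPM in fibroblasts, 11.8, 4.32 and 19 CPM in satellite cells and 12.7 and 21 CPM in endothelial cells. Epithelial cells and fibroblasts both stood above satellite and endothelial cells, and epithelial cells were lower than fibroblasts by a log2 fold change of −1.20 ± 0.163 for Col4a5 (adjusted p 4.2e-04) and −1.26 ± 0.115 for Col4a6 (adjusted p 4.6e-05, edgeR). Of the third pair, Col4a4 was lower in epithelial cells (10.6, 7.66 and 2.9 CPM against 24.7, 16.5 and 32.5 CPM, −1.80 ± 0.473, adjusted p 0.0121). Its partner Col4a3 was not called (8.91, 6.19 and 2.31 CPM against 3.55, 0.989 and 4.96 CPM, 0.77 ± 0.594, adjusted p 0.298, edgeR), with overlapping groups.

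Within a pair, the ratio of partners also varied by class. UMIs of Col4a3 per UMI of Col4a4 were 0.843, 0.808 and 0.796 in epithelial cells and 0.144, 0.06 and 0.153 in fibroblasts, with no overlap. UMIs of Col4a2 per UMI of Col4a1 were 0.287, 0.326 and 0.33 in fibroblasts, 0.234, 0.31 and 0.33 in satellite cells, and 0.587 and 0.678 in endothelial cells of libraries 1 and 2, where both values lay above all of the former. In epithelial cells, where both genes were near 2 to 3 CPM, the ratio was higher still at 1.09, 1.36 and 1.38. UMIs of Col4a6 per UMI of Col4a5 were close in epithelial cells (0.831, 0.894 and 0.855) and fibroblasts (0.93, 1.04 and 0.774). Over the 15 class-by-library sums with 20 or more cells, which share libraries and depth, Pearson's r of log2(CPM + 1) was 0.97 between Col4a1 and Col4a2, 0.81 between Col4a5 and Col4a6, 0.72 between Col4a3 and Col4a4, and 0.06 between Col4a1 and Col4a5. The same measure put Col1a1 with Col1a2 (0.98), Col7a1 with Col17a1 (0.90), and Col6a1 with Col6a2 (0.98) more closely than Col6a1 with Col6a3 (0.72).

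**Figure D3:**
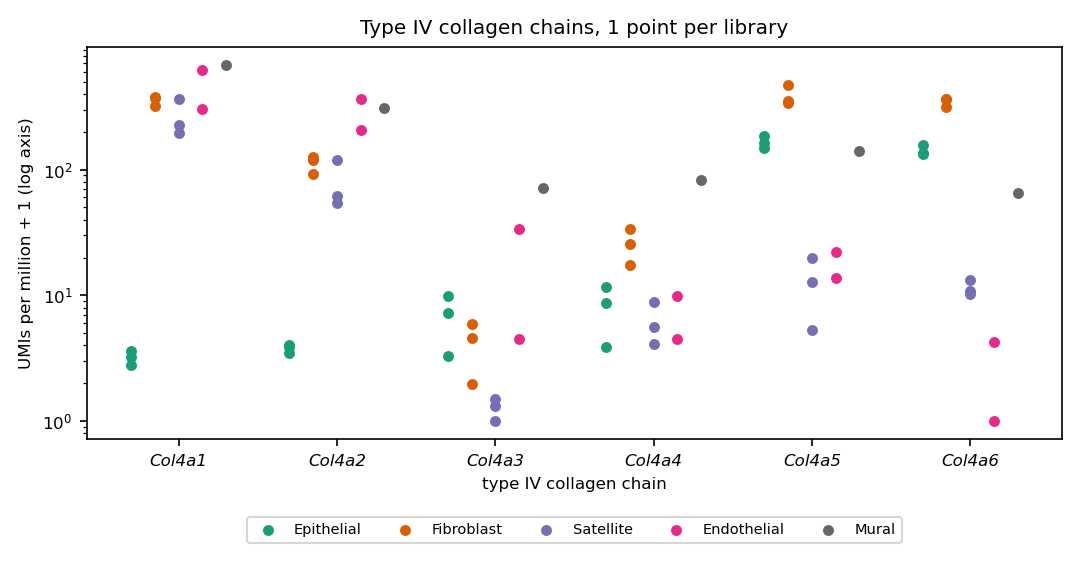
Levels of the 6 type IV chains as CPM + 1 on a log axis, 1 point per library, by class. Mural cells come from library 1. Col4a1 and Col4a2 were lowest in epithelial cells among the classes drawn, and Col4a5 and Col4a6 were highest in epithelial cells and fibroblasts.

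Basal cells are the layer of a stratified epithelium that touches the basement membrane. Epithelial cells were called basal when they held Trp63 (a transcription factor of basal cells) and 5 or more UMIs of the basal keratin Krt5 (14176 cells), and non-basal with no Trp63 and fewer than 5 Krt5 UMIs (3245 cells). Both names are those of the gates, and the place of a cell in the epithelium was not tested. Krt13, a gene of squamous differentiation, was at 827, 395 and 650 CPM in basal against 86.9, 104 and 166 CPM in non-basal cells. The secretory gene Scgb1a1 was at 114, 12.4 and 16.1 CPM against 2483, 4359 and 2659 CPM. The paper also reported high Trp63 in suprabasal cells, so the basal group may hold some of them. Of 29 collagens tested, 9 were higher in basal cells and 5 lower. Over all genes, 25.8 percent were higher and 28.2 percent lower, so the share of collagens higher in basal cells was near the background in this comparison, and the median log2 fold change of the collagens was −0.01 (all genes, 0.02). Total collagen was 0.0798%, 0.0706% and 0.0807% of UMIs in basal and 0.0236%, 0.0246% and 0.0239% in non-basal cells. Basal cells also held more UMIs per cell (medians of 14975 to 20178 against 6102 to 11155).

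Col17a1 was at 307, 253 and 290 CPM in basal and 18.3, 15.3 and 23.2 CPM in non-basal cells (log2 fold change 3.79 ± 0.17, adjusted p 1.4e-06, edgeR). Col7a1 was at 26.5, 24 and 35.3 CPM against 2.42, 1.97 and 4.02 CPM (3.22 ± 0.257, adjusted p 3.3e-05, edgeR). Both attachment collagens were thus higher in basal cells in every library. Col4a6 was at 159, 146 and 166 CPM against 41.7, 35.1 and 41.3 CPM (1.89 ± 0.104), and Col4a5 at 175, 154 and 188 CPM against 83.4, 74.2 and 88.3 CPM (0.97 ± 0.106), so the smaller difference was that of Col4a5. UMIs of Col4a6 per UMI of Col4a5 were 0.5, 0.473 and 0.467 in non-basal cells, below the 0.831 to 0.894 of all epithelial cells. Col25a1 was higher at 33.6, 67.8 and 38.6 CPM against 11.8, 15.4 and 12.4 CPM (1.73 ± 0.28, adjusted p 0.00141, edgeR). The other chains higher in basal cells were Col16a1 (2.63) and Col12a1 (2.46), which associate with fibrils, the multiplexin Col18a1 (1.72) and Col23a1 (1.08).

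The 5 collagens lower in basal cells all had a mean under 10 CPM and are described as a full set of the lower calls, with their values in view. Col26a1, which belongs to none of the structural groups, was at 0.0632, 0.061 and 0.0718 CPM in basal and 2.49, 3.94 and 3.94 CPM in non-basal cells (log2 fold change −5.74 ± 0.353, adjusted p 8.1e-06, edgeR). Per cell, 2.17%, 3.18% and 2.47% of non-basal cells held a Col26a1 UMI against 0.0708%, 0.124% and 0.112% of basal cells, the deeper ones. Col8a2 of the short-chain network (−3.79 ± 0.311), the fibril-forming Col27a1 (−3.53 ± 0.298) and the multiplexin Col15a1 (−3.13 ± 0.593) were lower as well, as was Col28a1 (−1.69 ± 0.484), all with no overlap between groups in 3 libraries. Col8a1 was not called and its libraries pointed different ways, with 29.1, 16.2 and 20.4 CPM in basal and 23, 46.9 and 4.02 CPM in non-basal cells.

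**Figure D4:**
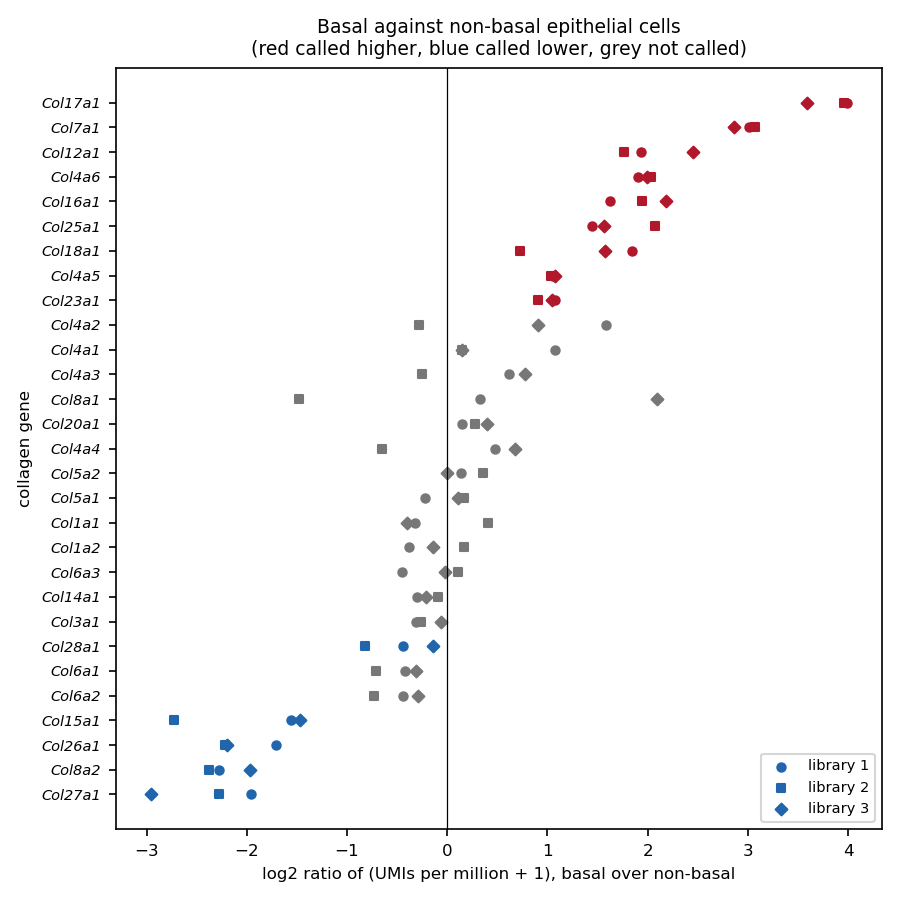
Log2 ratio of basal to non-basal epithelial cells on the (CPM + 1) scale, 1 point per library, for the collagens tested. Col17a1, Col7a1 and Col4a6 lie to the right in all 3 libraries, and Col27a1, Col8a2, Col26a1 and Col15a1 to the left, while the libraries of Col8a1 straddle 0.

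Satellite cells, the stem cells of muscle fibres, lie beneath the fibre's own basement membrane. Of 31 collagens tested against fibroblasts, 2 were higher and 23 lower, against 17.0 percent and 24.3 percent of all genes, with a median log2 fold change of −2.42 (all genes, −0.00). Some passed the count filter only through fibroblasts: Col8a2 had 2 satellite and 400 fibroblast UMIs, Col11a1 3 and 152, and Col13a1 5 and 942. Col19a1 and Col26a1, with 3 and 14 fibroblast UMIs, passed it only through satellite cells. The counts and the median therefore do not describe whole families. With the library as a block, 3 were higher and 25 lower (22.3 percent and 28.1 percent of all genes). The higher ones were Col19a1, a fibril-associated chain, and Col26a1. Col19a1 was at 6.15, 17.6 and 57.3 CPM in satellite cells and 0, 0 and 0.372 CPM in fibroblasts. The groups did not overlap, although the satellite libraries lay far from each other, and the log2 fold change was 7.48 ± 1.1 (adjusted p 9.1e-04, edgeR). It rested on 219 satellite and 3 fibroblast UMIs, a ratio of 237 (exact interval 80.2 to 1160, counting error only). Col19a1 UMIs were seen in 2.69%, 4.91% and 11% of satellite cells and 0%, 0% and 0.206% of fibroblasts. Col26a1 was at 36.4, 16.3 and 82.6 CPM in satellite cells and 0.363, 0 and 1.12 CPM in fibroblasts (6.17 ± 0.742, adjusted p 2.9e-04, edgeR), and was detected in 13.7%, 8.35% and 25.2% against 0.335%, 0% and 0.823% of cells. For both genes, all 3 satellite libraries lay above all 3 fibroblast libraries.

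Among the fibrillar chains, type I was scarce in satellite cells while types III and V were not. Col1a1 was at 5.13, 0.332 and 5.95 CPM in satellite cells against 578, 750 and 2369 CPM in fibroblasts (log2 fold change −8.45 ± 0.857, adjusted p 1.2e-04, edgeR). Col3a1 was at 134, 80.7 and 440 CPM against 994, 1080 and 3164 CPM (−3.08 ± 0.671, adjusted p 0.00689), and Col5a2 at 169, 153 and 293 CPM against 340, 360 and 659 CPM (−1.20 ± 0.298, adjusted p 0.0127). Each fell below fibroblasts, by far more for Col1a1 than for Col5a2. In UMIs, Col1a1 per Col3a1 was 0.0382, 0.00412 and 0.0135 in satellite cells and 0.581, 0.695 and 0.749 in fibroblasts. Col1a2 per Col3a1 was 0.0611, 0.0535 and 0.0718 against 1.04, 1.05 and 0.825. Fibroblast and satellite ratios did not overlap for either type I chain. Dcn was at 1264, 2542 and 197 CPM in these satellite cells, and the part of fibroblast RNA in their Col3a1 was not tested.

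The minor chain Col5a3 was at 29.7, 35.5 and 81.1 CPM in satellite cells against 20.3, 13.9 and 38.3 CPM in fibroblasts. The groups overlapped, and the gene was called higher only with the library as a block (0.92 ± 0.177, adjusted p 0.00388, against 0.93 ± 0.415 and 0.108 without, edgeR). Type VI was also uneven. Col6a1 was at 83.6, 58.8 and 168 CPM (−1.98 ± 0.408, adjusted p 0.00514) and Col6a2 at 28.2, 19.6 and 49.5 CPM in satellite cells, while Col6a3 was at 2.05, 0 and 0.744 CPM against 183, 163 and 268 CPM in fibroblasts (−8.01 ± 0.482, adjusted p 7.1e-06, edgeR). UMIs of Col6a3 per UMI of Col6a1 were thus 0.0245, 0 and 0.00443 in satellite cells and 0.626, 0.608 and 0.438 in fibroblasts, although collagen VI is known to be built from 3 different chains. Another type VI chain, Col6a6, was not called, with means of 15.8 CPM in satellite cells and 20.7 CPM in fibroblasts (−0.47 ± 0.524, adjusted p 0.502, edgeR). It rested on 121 satellite UMIs, and its libraries pointed different ways. Of type IV, Col4a1 was not called (−0.51 ± 0.199, adjusted p 0.073) and nor was Col4a2 (−0.59 ± 0.261, adjusted p 0.105), and both were called lower with the block (adjusted p 0.0144 and 0.015, edgeR). Col4a6 was lower by a log2 fold change of −5.10 ± 0.16. Col14a1 (−7.60 ± 0.464), Col23a1 (−7.46 ± 0.338), Col1a2 (−6.82 ± 0.736) and Col24a1, with 3 satellite UMIs and a ratio of 71.1 (24.2 to 346), completed the list of largest differences. Satellite cells with no marker of another class (49, 67 and 89 cells) left 18 collagens testable, of which 0 were higher and 15 lower (653 and 1163 of 7263 genes), and Col19a1 and Col26a1 were not among them.

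Endothelial cells numbered 407 and 26 in libraries 1 and 2 and 3 in library 3, so they were compared in libraries 1 and 2 alone, a choice made after the data were seen. Of 31 collagens tested, 3 were higher than in fibroblasts and 23 lower, against 16.4 percent and 21.0 percent of all genes, with a median of −4.09 (−3.92 with the 2 genes at 0 set to their bound) and −0.06 over all genes. Here too some passed the count filter only through fibroblasts, such as Col5a3 (1 endothelial and 322 fibroblast UMIs) and Col16a1 (2 and 288). These counts therefore do not describe whole families. Col13a1, a membrane collagen, was at 309 and 129 CPM in endothelial cells and 36.4 and 28 CPM in fibroblasts of these libraries (log2 fold change 2.88 ± 0.348, adjusted p 1.7e-04, edgeR). Col4a2 was at 365 and 206 CPM against 92 and 119 CPM (1.52 ± 0.279, adjusted p 0.00213, edgeR). Neither pair of groups overlapped, whereas Col4a3, also called higher (3.24 ± 0.572, adjusted p 0.00174, edgeR), was at 32.6 and 3.5 CPM against 3.55 and 0.989 CPM, which overlapped. The Col4a3 call rested on 111 endothelial and 52 fibroblast UMIs, and nearly all of the endothelial ones came from library 1. Col4a1 was not called (621 and 304 CPM against 321 and 367 CPM, 0.49 ± 0.319, adjusted p 0.273, edgeR).

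The type I and III chains and Col6a1, Col6a2 and Col6a3 were far lower in endothelial cells than in fibroblasts, while Col6a6 was lower by less (−2.60) and Col6a5 was not called (−0.42, adjusted p 0.755, edgeR). Col1a1 had 2 UMIs in endothelial and 10242 in fibroblast sums, a ratio of 1116 (exact interval 309 to 9214), Col14a1 a ratio of 485 (166 to 2350) and Col6a2 a ratio of 312 (86.2 to 2574). Col1a2 (−8.94 ± 0.436), Col3a1 (−8.88 ± 0.432) and Col6a1 (−7.96) were lower by like amounts. Col8a2 and Col11a1 had 0 endothelial UMIs, and were at least 17.6-fold and 4.94-fold higher in fibroblasts by a floor of 3 counts over the group. Col4a5 (−4.60 ± 0.271) and Col4a6 (−6.81 ± 0.366) of the X-linked pair were lower too. The multiplexins differed from each other: Col15a1 was lower (97.1 and 90.9 CPM against 338 and 268 CPM, −1.66), and Col18a1, the precursor of endostatin, was not called (34 and 14 CPM against 19 and 17.2 CPM, adjusted p 0.0718, edgeR).

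The last split was within fibroblasts, on the summed UMIs of Hhip (a Hedgehog-binding protein), Wnt16 (a Wnt ligand) and Col23a1: 1860 cells with 2 or more UMIs were called positive and 627 with 0 negative. Col23a1 is a gate gene here and was left out of the test. Of the 28 other collagens tested, 2 were higher in positive cells and 0 lower, against 2.27 percent and 1.92 percent of all genes, and DESeq2 gave 3 and 1 (364 and 332 of 14790 genes). At an unadjusted p under 0.05, 6 collagens passed in edgeR's test, as did 1607 of the 12172 genes. With the library as a block, 6 were higher and 2 lower (5.30 percent and 4.53 percent of all genes). The median log2 fold change was 0.12 without and 0.14 with the block, and −0.00 over all genes.

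Col13a1 was at 53, 36.5 and 51.8 CPM in positive and 7.97, 3.58 and 13.5 CPM in negative fibroblasts. Positive cells lay above negative ones in all libraries, with a log2 fold change of 2.37 ± 0.298 (adjusted p 0.00364, edgeR). Col13a1 UMIs were found in 25.1%, 20.2% and 21.8% of positive and 3.95%, 3.51% and 7.27% of negative cells, against 0% of leukocytes in libraries 1 and 2 and 42% and 38.5% of endothelial cells there. Median depth was close on both sides of the split (7678 to 10195 UMIs per positive and 6970 to 9100 per negative cell). Without library 1 and without the block, 0 collagens were called in either direction and Col13a1 had an adjusted p of 0.191 (log2 fold change 2.12, edgeR). The loss was not particular to the collagens, since in this fit only 1 gene was higher and 1 lower of 11334 tested. With the block and without library 1, 5 collagens were higher and 3 lower (363 and 316 of 11334 genes). Again with no block, 1 collagen was higher without library 2 (of 13230 genes, 101 were higher and 74 lower), and without library 3, 5 were higher and 1 lower (of 12298 genes, 458 and 389). Col24a1, a fibril-forming chain, was at 36.4, 38.3 and 28.1 CPM against 14, 16.1 and 21 CPM (1.00 ± 0.224, adjusted p 0.046, edgeR). Its groups did not overlap, yet 8 of the alternatives took its adjusted p to between 0.0549 and 0.737, with a log2 fold change of 0.52 with the gate on a margin of 3 markers and 0.67 to 1.44 in the other 7.

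Further chains were called with the library as a block. Col6a3 was at 216, 188 and 293 CPM in positive and 128, 89.6 and 200 CPM in negative cells (0.71 ± 0.11, adjusted p 0.00368, and 0.286 without the block, edgeR). Col4a6 was at 369, 425 and 364 CPM against 201, 195 and 282 CPM (0.72 ± 0.132, adjusted p 0.00831, and 0.0573 without the block), and Col6a1 (0.61 ± 0.112) and Col14a1 (0.54 ± 0.102) were also higher. In the other direction, Col8a1, of the short-chain network, was at 23.4, 28.2 and 67.7 CPM against 107, 77.1 and 122 CPM (−1.55 ± 0.238, adjusted p 0.0034, and 0.0831 without the block), and Col5a3 at 13.7, 13.8 and 26.3 CPM against 36.3, 14.3 and 96.2 CPM (−1.50 ± 0.229, adjusted p 0.00339, edgeR with the block). Within each library the 6 chains lay on the higher side and the other 2 on the lower side, though Col6a3, Col6a1, Col14a1 and Col5a3 overlapped between libraries. The main chains of fibrils and of the α1α1α2 network were not called, with log2 fold changes of −0.09 for Col1a1, −0.30 for Col3a1 and −0.09 for Col4a1. Dcn, a marker of the fibroblast class and so outside the test, was at 8243, 5736 and 6207 CPM in positive and 22467, 21653 and 15890 CPM in negative cells.

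Fibroblasts were also split on Hhip and Wnt16 alone. Col23a1, chosen with these genes to mark the population, is described here without a test. It was at 1199, 1024 and 1323 CPM in cells with 2 or more UMIs of the pair and 166, 325 and 501 CPM in cells with 0. The groups did not overlap. Col13a1 (2.03 ± 0.375, adjusted p 0.0236) and Col24a1 (1.42 ± 0.175, adjusted p 0.00471, edgeR) were higher again. Col6a6, a type VI chain, was lower at 17.9, 12.9 and 15.3 CPM against 27.8, 26.4 and 28.9 CPM (−0.85 ± 0.176, adjusted p 0.037, edgeR). Col23a1 aside, 2 collagens were thus higher and 1 lower, against 1.91 percent and 1.76 percent of all genes, and 8 and 4 with the library as a block (6.13 percent and 6.12 percent).

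**Figure D5:**
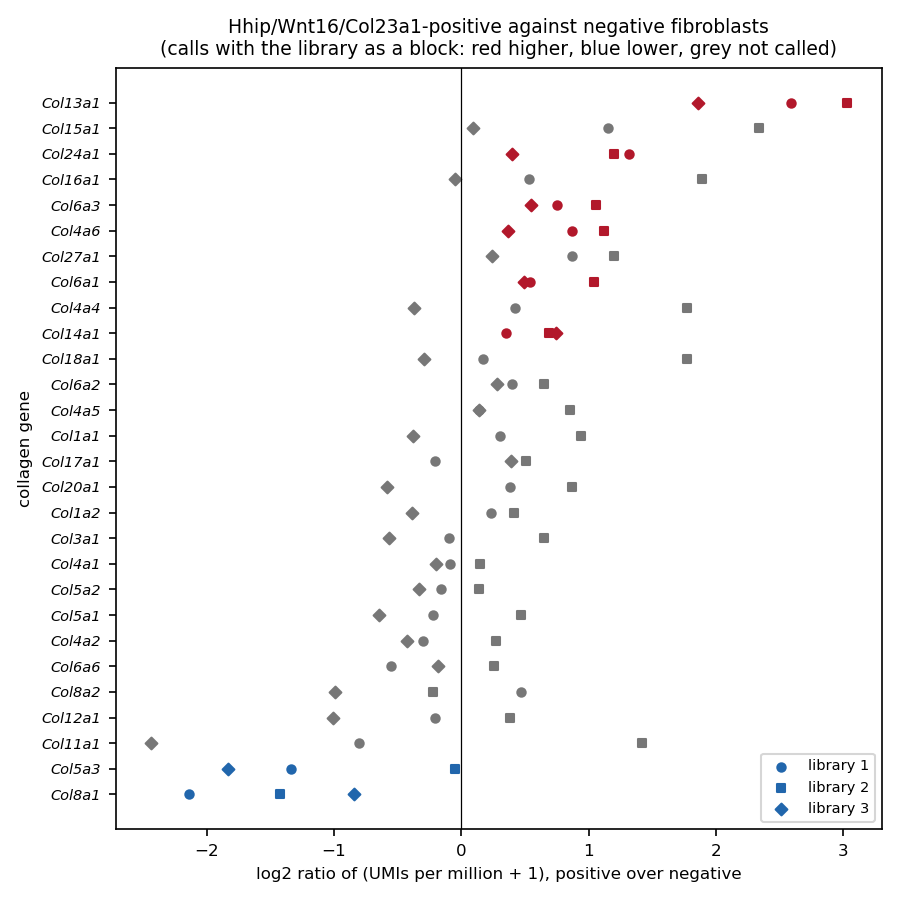
Log2 ratio of Hhip/Wnt16/Col23a1-positive to negative fibroblasts, 1 point per library, for the collagens tested. Colours mark calls with the library as a block, 6 higher and 2 lower, and Col13a1 lies farthest to the right in all libraries.

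Since the cells had been sorted for a reporter of the Lrig1 locus, fibroblasts and epithelial cells were also split by whether a cell held an Lrig1 UMI. Of 32 collagens tested in fibroblasts (710 Lrig1+ and 2046 Lrig1− cells), 0 were called in either direction by edgeR and 0 by DESeq2. Over all genes edgeR called 0.00 percent, and DESeq2 1 higher and 3 lower of 22262. An unadjusted p under 0.05 in edgeR's test was reached by 1 collagen, Col6a6, and by 192 of the 12487 genes. With the library as a block, Col15a1 was higher (420, 328 and 676 CPM in Lrig1+ against 306, 241 and 532 CPM in Lrig1− cells, 0.41 ± 0.06, adjusted p 0.0156, edgeR), against 0.192 percent of all genes in each direction. Col15a1 was higher in Lrig1+ cells of each library, by less than the spread between libraries. With the block and without library 1, 0 were called (7 higher and 3 lower of 12053 genes), and without library 2, 6 were higher and 2 lower (107 and 101 of 13071 genes). Lrig1+ fibroblasts were the deeper ones (medians of 10206 to 10990 UMIs against 6682 to 9928). With cells thinned to 5000 UMIs, shallower cells left out, the split set again and the block, Col15a1 had a log2 fold change of 0.18 and an adjusted p of 0.824 (edgeR), so its call was lost.

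In epithelial cells, 0 of 31 collagens were called by edgeR and 0 by DESeq2 (0.00 percent of all genes by edgeR, and 21 higher and 53 lower of 19148 by DESeq2). In edgeR's test 2 collagens, Col18a1 and Col23a1, had an unadjusted p under 0.05, as did 802 of the 17545 genes. With the block, 0 were higher and 5 lower, against 5.36 percent and 6.42 percent of all genes. Col18a1 was at 3.81, 4.69 and 4.56 CPM in Lrig1+ against 5.53, 5.54 and 7.21 CPM in Lrig1− cells (−0.53 ± 0.111, adjusted p 0.0335, edgeR with the block), and Col14a1, Col3a1, Col4a3 and Col4a4 were the others. Col14a1 and Col3a1 had means of 0.697 and 3.58 CPM over all epithelial cells, and the source of these UMIs was not tested. Dcn was also lower in Lrig1+ cells of each library (225, 136 and 251 against 235, 176 and 287 CPM). Lrig1+ epithelial cells were deeper (medians of 15583 to 18866 UMIs against 7603 to 11699). Thinning to 5000 UMIs left out shallower cells and set the gates and the Lrig1 split again on the thinned counts. With it and the block, 4 collagens were higher and 0 lower (10.5 percent and 13.2 percent of all genes), namely Col25a1, Col8a1, Col4a6 and Col4a5. In basal cells alone the block gave 0 higher and 11 lower (5.99 percent and 7.73 percent of all genes), and the 5 lower calls in all epithelial cells were 0 without library 2 (120 higher and 130 lower of 17595 genes) or library 3 (124 and 174 of 17229). Col17a1 was at 206, 197 and 251 CPM in Lrig1+ and 230, 185 and 263 CPM in Lrig1− cells, which overlapped. A test of whether the Lrig1 difference itself differed between epithelial cells and fibroblasts called 0 of 37 collagens by edgeR (0.00 percent of all genes) and 0 by DESeq2 (2 genes higher and 2 lower of 27471). Col6a5, Col6a6 and Col4a1 had an unadjusted p under 0.05 in edgeR's test, as did 528 of the 17020 genes.

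Of 63 genes that modify, secrete, cross-link, bind or break down collagen, 57 were tested in epithelial cells against fibroblasts and 9 were higher and 40 lower, against 31.2 percent and 28.0 percent of all genes. Itgb4, which pairs with Itga6 in the hemidesmosome, was at 252, 268 and 290 CPM in epithelial cells against 4.42, 3.96 and 6.83 CPM in fibroblasts (log2 fold change 5.73), and Itga6 at 332, 332 and 370 CPM against 9.14, 3.3 and 8.93 CPM (5.49). P3h2, a prolyl 3-hydroxylase that acts on type IV collagen, was at 143, 134 and 158 CPM against 4.57, 2.64 and 6.83 CPM (4.88). These epithelial genes did not overlap fibroblasts in any library. On the other side stood Ddr2, a receptor of fibrillar collagen (0.55, 0.184 and 0.475 CPM against 228, 196 and 217 CPM, −8.97), Adamts2, which removes the propeptide of fibrillar procollagens (0.147, 0.105 and 0.404 CPM against 92.2, 103 and 197 CPM), and the matrix metalloproteinase Mmp16 (−8.79). Of the 14 genes of propeptide removal and cross-linking, 11 were lower, against the same 28.0 percent, and 2 were higher, the procollagen protease gene Tll1 (133, 99.5 and 49.5 CPM against 48.1, 60.4 and 48 CPM, which overlapped) and Loxl4 (13.8, 12.3 and 11.3 CPM against 5.29, 7.26 and 5.58 CPM).

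In satellite cells 3 of 55 such genes were higher, P3h2 (2.89, adjusted p 4.4e-04), the collagen receptor Ddr1 (1.68, adjusted p 1.8e-04) and Pxdn, which cross-links type IV (0.65, adjusted p 0.0201, edgeR), and 40 were lower, against 17.0 percent and 24.3 percent of all genes. Some of the lower ones passed the count filter only through fibroblasts, such as Tll2 (1 satellite and 146 fibroblast UMIs) and Loxl4 (3 and 140). With the block 5 were higher, Mia2 and Klhl12 being added, and 42 lower, Bmp1 and Loxl2 being added. The largest falls among genes with 10 CPM or more in fibroblasts were those of the proteases Ctsk (−6.90) and Mmp16 (−5.90) and the transcription factor Creb3l1 (−4.60). In endothelial cells of libraries 1 and 2, 9 of 56 were higher and 34 lower, against 16.4 percent and 21.0 percent of all genes. Itga6 was at 428 and 238 CPM there (5.60), Itgb4 at 77.5 and 157 CPM (4.53) and the protease inhibitor Timp4 at 183 and 126 CPM (5.81). The secretory epithelial gene Scgb1a1 was at 40 and 1653 CPM in these endothelial cells, while the epithelial gate markers summed to 48.2 and 31.5 CPM. The part of epithelial RNA in their Itga6 and Itgb4 was not tested. Loxl1, Adamts2 and Adamts14 had 0 endothelial UMIs, against 2943, 1585 and 269 in fibroblasts.

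Between basal and non-basal cells, 18 of 51 were higher and 11 lower, not far from the 25.8 percent and 28.2 percent of all genes. P3h2 was at 193, 168 and 178 CPM in basal against 17.1, 17.3 and 17.1 CPM in non-basal cells (3.28), the cross-linking enzyme Loxl4 differed by 2.88, and Itgb4 was at 323, 315 and 321 CPM against 49.3, 58.5 and 58.1 CPM (2.43). Both P3h2 and Itgb4 were thus higher in basal than in non-basal cells, as Col17a1 and Col4a6 were. Creb3l1 was at 1.52, 0.834 and 1.31 CPM against 66, 57.1 and 73.5 CPM (−5.84), and Timp4 (−7.77) and Ctsk (−4.73) were lower as well. In the Hhip/Wnt16/Col23a1 split of fibroblasts, 1 of 55 was higher and 5 lower, against 2.27 percent and 1.92 percent of all genes, and 4 and 9 with the block, against 5.30 percent and 4.53 percent. The 1 higher gene is a share near that of all genes. Adamts14, a procollagen N-proteinase, was at 21.4, 25.4 and 24.4 CPM in positive and 3.02, 1.79 and 7.51 CPM in negative cells (2.46, adjusted p 0.00632, edgeR). Pcolce2, an enhancer of procollagen C-proteinase, was at 77.6, 54.5 and 82.6 CPM against 531, 421 and 195 CPM (−2.46, adjusted p 0.00739, edgeR). Fap, a serine protease of fibroblasts, was at 39.9, 26.8 and 31.7 CPM against 158, 73.5 and 120 CPM (−1.91, adjusted p 0.00576, edgeR), and the collagen receptor subunit Itga2 was lower by −2.21. None of the 3 genes with values overlapped between positive and negative cells. Without library 1 and without the block, at most 1 gene in each direction was called over all genes, so most of these calls were lost in that fit. With the block and without library 1, 363 genes were higher and 316 lower of 11334.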

How the data were processed

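Single-cell RNA of 3 sorted libraries was read with the Chromium GEM-X 3′ v4 kit. The authors deposited UMI counts per gene and barcode from Cell Ranger 8.0.1 on GRCm39 (tool version and build from the submitters' processing notes), and these raw counts were used as deposited. The files held 60530 barcodes. Barcodes outside 500 to 8000 detected genes or 1000 to 40000 UMIs, or with over 8% of UMIs from mitochondrial genes, were dropped, which left 49393. Of these, 4851 predicted doublets, scored against simulated pairs at 0.4% per 1000 cells, were removed. Markers of each class: Epcam, Cdh1, Esrp1, Grhl2, Cldn7, Perp, Dsp, Sfn (epithelial); Pdgfra, Dcn, Lum, Dpt, Serpinf1, Mmp2, Fbln1, Twist2 (fibroblast); Pax7, Myf5, Cdh15, Chodl, Fgfr4, Megf10, Des, Myod1 (satellite); Pecam1, Cdh5, Kdr, Tie1, Egfl7, Flt1, Emcn, Cldn5 (endothelial); Rgs5, Kcnj8, Abcc9, Higd1b, Myh11, Ndufa4l2, Lmod1, Gucy1a1 (mural); Ptprc, Tyrobp, Fcer1g, Csf1r, C1qa, C1qb, Laptm5, Coro1a (leukocyte); Acan, Matn1, Matn3, Comp, Hapln1, Cnmd, Snorc, Chad (cartilage). 1 further class is not reported here. No collagen set a class gate. Cartilage cells could hold any number of fibroblast markers.

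UMIs were summed per library and class and tested with edgeR 4.0.16 (R 4.3.3; quasi-likelihood test, TMM scaling, filterByExpr) across all genes that set no gate, with Benjamini-Hochberg adjustment and a threshold of 0.05. Classes needed 20 cells in each library. DESeq2 1.42.0 was an alternative. Standard errors are the log2 fold change divided by the square root of F, and the log scale of plots and correlations used a pseudocount of 1. Shares of cells are of barcodes with at least 1 UMI. Exact intervals and floors (95%, 3 counts) cover counting error only, and p-values measure the spread between pools of animals. The classes of a library come from the same pools, and same-numbered sums deviated together (correlations of 0.108 to 0.774), so fits with the library as a block are given where they change the call of a collagen. The scripts were tested on simulated data.

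The collagens and the 63 other genes were chosen with earlier results of these data known. In each comparison, values are given in full for at most 6 collagens higher and 6 lower, the largest log2 fold changes among those called with 10 CPM or more in the higher class, and for at most 3 pathway genes each way. Further collagens were given to complete a chain family or because a call changed, and were chosen after their values were seen. Endothelial cells of library 3 (3 cells) and mural cells (58, 10 and 0) were too few for the test as designed. No protein sequences were used here.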

Additional observations from a re-analysis of the deposited data

How the results depend on the processing

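No collagen call chosen by the rule for named genes turned its direction under any alternative run (other class gates, thinning to 5000 UMIs, no filter on low counts, DESeq2, the library as a block and leaving out each library). The counts of collagens called in epithelial cells against fibroblasts stayed at 3 to 4 higher and 31 to 32 lower when a library was left out, and those in basal against non-basal cells at 8 to 12 and 4 to 5, with 3 lower after thinning. In satellite cells, leaving out a library gave 2 to 3 higher and 17 to 27 lower (over all genes 835 to 2419 and 1773 to 3361 of 12487 to 13626). The gate with no marker of another class gave 0 and 15 (653 and 1163 of 7263 genes). In positive against negative fibroblasts, the number higher was 1 with 4 own markers required, 1 when cells with 1 UMI or more were compared with cells with 0, 4 with no filter, 6 with the block and 9 with the block and the split on Hhip and Wnt16 alone, which counts Col23a1, a gene left out of the other fits. In the same order, the genes higher over all genes were 280 of 12129, 219 of 12236, 526 of 22065, 645 of 12172 and 769 of 12547. The number lower was 1 with no marker of another class, 1 with DESeq2, 1 with the split on Hhip and Wnt16 alone, 2 thinned, 2 with no filter, 2 with the block and 4 with the block and that split. In the same order, the genes lower over all genes were 123 of 7602, 332 of 14790, 221 of 12547, 231 of 11343, 475 of 22065, 551 of 12172 and 768 of 12547. Leaving out a library gave 0 to 5 higher and 0 to 1 lower, and 5 to 9 and 2 to 3 with the block. Over all genes (11334 to 13230 tested) it gave 1 to 458 and 1 to 389, and 363 to 743 and 316 to 608 with the block. In Lrig1+ against Lrig1− fibroblasts the block gave 1 higher, 0 to 6 without a library, and 0 to 2 lower, with 1 lower when thinned with the block. Over all genes the block gave 24 higher and 24 lower of 12487, and 7 to 107 and 3 to 101 without a library. Thinned with the block, 4 and 10 of 10595 genes were called. In epithelial cells the block gave 5 lower (0 to 5, and 0 to 1 higher, without a library), 11 lower in basal cells alone and 4 higher when thinned. Over all genes the block gave 941 higher and 1127 lower of 17545, and 120 to 567 and 130 to 1054 without a library. In basal cells alone it gave 953 and 1230 of 15911, and when thinned 1618 and 2027 of 15339. In all these the cause was not tested. With all cells of each class and all libraries, the block changed no collagen call in epithelial cells against fibroblasts or in basal against non-basal cells. It moved the counts of the other pathway genes by less than 1.5 times in epithelial, endothelial and basal cells. Cell numbers limited the mural class and endothelial cells of library 3, and the Lrig1 split of fibroblasts and the test of its difference were not run with no marker of another class, which left under 20 cells. A gate needing a margin of 3 markers, the endothelial libraries 1 and 2, basal cells alone and the combinations with the block were chosen after the data were seen.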

Other observations

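Classes with too few cells for a test in 3 libraries are given here as values. Mural cells of library 1 (58 cells), the contractile cells of vessel walls, held Col4a1 at 679 CPM, Col4a2 at 308 CPM, Col3a1 at 274 CPM, Col5a2 at 226 CPM and Col5a3 at 115 CPM. Col4a5 of the X-linked pair made up 63 of their 1157 collagen UMIs (5.45%). Both chains of the α3α4 pair were present there, Col4a3 at 70.8 CPM and Col4a4 at 81.9 CPM, and Col19a1 was at 24.3 CPM. Cartilage cells of library 1 (21 cells) held the cartilage collagens Col11a1 at 912 CPM, Col9a2 at 407 CPM, Col9a1 at 337 CPM and Col2a1 at 244 CPM, with Col8a1 at 467 CPM and Col27a1 at 364 CPM. Col1a2 and Col3a1 made up 9.1% and 7.11% of their collagen UMIs, against 17.6% for Col11a1 and 7.85% for Col9a2. Fibroblast markers, on which the cartilage gate put no limit, summed to 9245 CPM in these cells, and cartilage markers to 8523 CPM. Leukocytes had few collagen UMIs (210 in all), of which 108 were Col14a1, at 46.3 and 118 CPM in libraries 1 and 2. A Col14a1 UMI was seen in 16.2% (Wilson 95% interval 10.5 to 24.2) and 28.9% (17 to 44.8) of leukocytes in these libraries, against 4.5% and 2.63% for Col3a1, although Col3a1 had the higher level of the pair in fibroblasts. Its source was not tested.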
